A study of Homo sapiens with 4 samples.

Results

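The 10 genes described here encode the 6 methyltransferases of the COMPASS family that methylate lysine 4 of histone H3 (H3K4), KMT2A, KMT2B, KMT2C, KMT2D, SETD1A and SETD1B, together with the core subunits WDR5, ASH2L and RBBP5 and the CpG-binding subunit CXXC1. They were chosen by name from 10827 genes that could be tested. Their spliced reads were counted in chromatin-bound RNA of K562 cells, a human erythroleukemia line, from 2 libraries of genotype SF3B1 K700E and 2 of wild-type genotype. The treatment text shared by all 4 samples gives expression of the modified allele as induced with 1 µg/ml doxycycline and harvest after 4 days, and it does not say separately what the wild-type cells carried or received. Chromatin was prepared with the RNA polymerase II inhibitor α-amanitin, and polyadenylated and ribosomal RNA were depleted, so the reads come from spliced RNA that fractionated with chromatin.

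H3K4 methylation marks the regulatory DNA of active genes. SETD1A and SETD1B, with CXXC1 bound to unmethylated CpG islands, place most of the trimethyl mark at promoters. KMT2C and KMT2D place the monomethyl mark at enhancers, and KMT2A and KMT2B act at selected promoters such as the HOX genes, KMT2A being the gene broken in MLL-rearranged leukemia. WDR5, ASH2L and RBBP5 assemble with the catalytic end of each enzyme and are needed for its full activity. SF3B1 belongs to the U2 snRNP and contacts the pre-mRNA around the branch point when a 3′ splice site is chosen. Its K700E form is known for use of acceptors a short way upstream of the normal ones. The series title concerns transcription elongation, replication stress and the chromatin landscape in cells with splicing factor mutations.

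Uniquely mapped junction reads numbered 4304213 and 5322414 in the SF3B1 K700E libraries, and 3582592 and 3687513 in the wild-type ones. The labels call the cells epithelial. Of 15 erythroid markers 11 were measured, led by the transferrin receptor TFRC, and of 10 epithelial markers 4 were measured, the keratins KRT8, KRT18 and KRT19 and the adhesion gene EPCAM, while CDH1, KRT5 and GRHL2 had no read in any library. Summed over a list, erythroid markers stood at 1598 and 2432 CPM (counts scaled to a common library size) in SF3B1 K700E and 1853 and 2339 CPM in wild type, and epithelial markers at 348 and 443 CPM against 483 and 371 CPM. Nothing in the labels says that replicates came from separate cultures, so p-values measure only the spread between these libraries. The allele of SF3B1 itself could not be read from junction counts.

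All 271 introns of the 10 reference transcripts had reads, and 95.8% of the genes' 66257 junction reads fell on them. A reference transcript is the protein-coding GENCODE transcript whose introns held the most reads. To compare genes of different intron number, the level of a gene was taken as the median CPM of its reference introns, relative to all annotated-junction reads of the library. On this scale KMT2C was highest, at 24.9 and 20.8 in SF3B1 K700E and 18.7 and 25.6 in wild type. KMT2A followed with 15.9 and 15.8 in SF3B1 K700E and 16.7 and 17.1 in wild type, and KMT2D with 14.5 and 16.2 against 16.1 and 13.4, so the ranges of these neighbours overlapped. ASH2L came next at 12.2 and 12.8 in SF3B1 K700E and 11.7 and 12.8 in wild type. KMT2B, WDR5, SETD1B, RBBP5, CXXC1 and SETD1A made up the lower end, with means over the 4 libraries of 7.86 for KMT2B down to 5.34 for SETD1A, and each overlapped the next in its range over libraries. The promoter-type enzymes SETD1A and SETD1B had fewer spliced reads per intron than the enhancer-type enzymes KMT2C and KMT2D in each of the 4 libraries.

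None of the 10 gene totals differed between SF3B1 K700E and wild type past the threshold. Totals are reads over annotated introns of 1 gene only, scaled to CPM, and were tested with edgeR's quasi-likelihood test over 10827 genes at a Benjamini-Hochberg adjusted p of 0.05, by which 0.333% of all genes were higher and 0.6% lower in SF3B1 K700E. DESeq2 called 0 of the 10 as well, and no member reached an unadjusted edgeR p of 0.05, against 397 genes higher and 697 lower at that level among all genes tested. The members' log2 changes, SF3B1 K700E over wild type, lay between -0.30 and 0.48 with a median of 0.05, beside 0.0037 for all genes. The median standard error of a member was 0.24. In these bulk libraries, fewer cells with the RNA and less RNA per cell cannot be told apart.

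**Figure D1:**
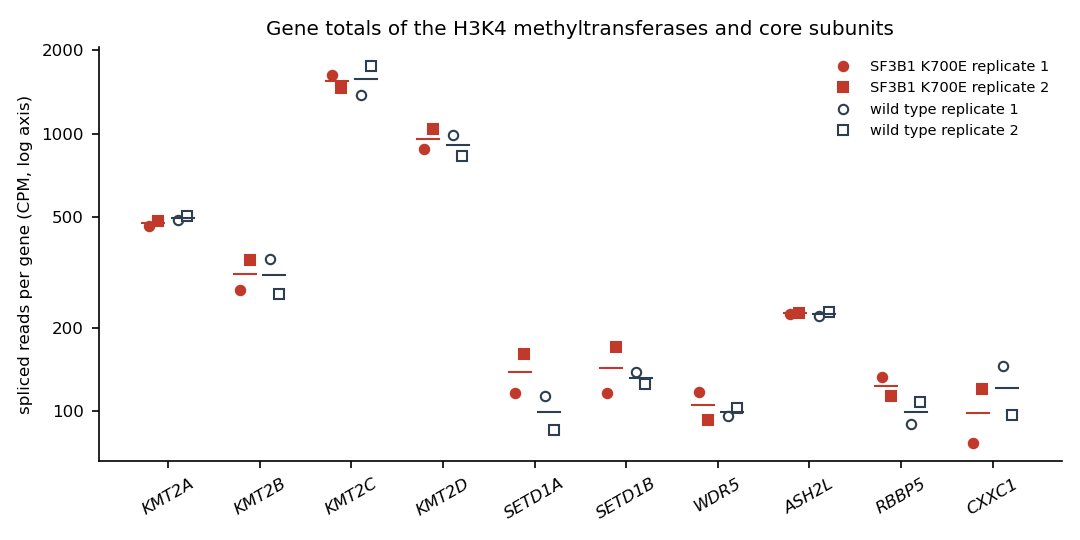
Spliced reads per gene in CPM (log axis) for the 10 genes, with SF3B1 K700E libraries as filled red symbols left of the wild-type libraries as open dark symbols, circles for replicate 1 and squares for replicate 2, and a bar at each mean of 2. The genotypes overlap in 7 genes, both SF3B1 K700E libraries lie above wild type for SETD1A and RBBP5, and both lie below for KMT2A.

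Among the methyltransferases, SETD1A stood at 117 and 161 CPM in SF3B1 K700E and 114 and 86.0 CPM in wild type (mean 139 ± 31.1 against 99.8 ± 19.6, SD, n = 2 each). Both mutant libraries were above both wild-type libraries, one of them by only a few CPM. Its log2 change of 0.48 (standard error 0.26) had the smallest p of the 10 genes and did not pass (edgeR p 0.097, adjusted p 0.625). SETD1B had 116 and 171 CPM in SF3B1 K700E against 139 and 125 CPM in wild type, and the mutant libraries enclosed the wild-type ones. KMT2A, at 467 and 485 CPM in SF3B1 K700E against 490 and 507 CPM in wild type, was lower in both mutant libraries (log2 change -0.07 with a standard error of 0.21, edgeR adjusted p 0.976). KMT2B had 275 and 352 CPM in SF3B1 K700E and 353 and 265 CPM in wild type, a spread within each genotype larger than the gap between them. KMT2C held 1631 and 1462 CPM in SF3B1 K700E against 1381 and 1756 CPM in wild type, and KMT2D 879 and 1039 CPM against 986 and 830 CPM. Both enhancer-type enzymes overlapped between genotypes, with log2 changes of -0.02 for KMT2C and 0.08 for KMT2D.

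Of the shared subunits, RBBP5 stood at 133 and 114 CPM in SF3B1 K700E and 90.2 and 108 CPM in wild type (123 ± 13.2 against 99.2 ± 12.8, SD, n = 2 each). Both mutant libraries were higher, and the log2 change of 0.31 (standard error 0.24) did not pass (edgeR adjusted p 0.760). ASH2L was the least variable member, with 225 and 226 CPM in SF3B1 K700E and 220 and 227 CPM in wild type, a log2 change of 0.01. WDR5, the WD40-repeat scaffold, had 118 and 93.2 CPM in SF3B1 K700E against 96.0 and 103 CPM in wild type. CXXC1 ran from 77.2 to 120 CPM in SF3B1 K700E and from 97.4 to 145 CPM in wild type, and its log2 change of -0.30 was the lowest of the 10 (standard error 0.29, edgeR adjusted p 0.852). Both mutant libraries were above both wild-type libraries in 2 members, as in 19.4% of all genes, and below them in 1 member, as in 20.1% of all genes.

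The spread within genotypes ran partly along the genes' base composition. SF3B1 K700E replicate 2 and wild-type replicate 1 were the higher libraries of their genotypes for KMT2B, KMT2D, SETD1A, SETD1B and CXXC1, whose transcripts hold 59.1 to 63.5% G and C. The 2 libraries were the lower ones for KMT2C (45.0% G and C) and RBBP5 (43.8%), and also for WDR5 (55.5%). In CXXC1 the difference on the log2 scale came to 0.63 for SF3B1 K700E replicate 2 minus replicate 1, and to 0.57 for wild-type replicate 1 minus replicate 2, each larger than the gap between genotypes. Over all 10827 genes, which are not independent replicates, GC content correlated with these replicate differences at r = 0.42 in each genotype, and with the log2 change between genotypes at r = -0.12. The part of base composition in the members' values was not tested.

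Read by single introns, the level differences of SETD1A and RBBP5 were spread over several introns. Of the 17 SETD1A introns with at least 10 reads, 8 had more reads, scaled to library depth, in both SF3B1 K700E libraries than in both wild-type libraries and none was lower. RBBP5 gave 5 higher and none lower of 13 introns, and KMT2D 13 higher and none lower of 53. CXXC1 gave none higher and 3 lower of 14, and KMT2A 4 higher and 8 lower of 35. Over all introns of the 10 genes 18.6% were higher and 9.67% lower in this sense, beside 19.6% and 16.6% of 119386 annotated introns of all genes, and introns of 1 gene share its RNA and are not replicates.

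**Figure D2:**
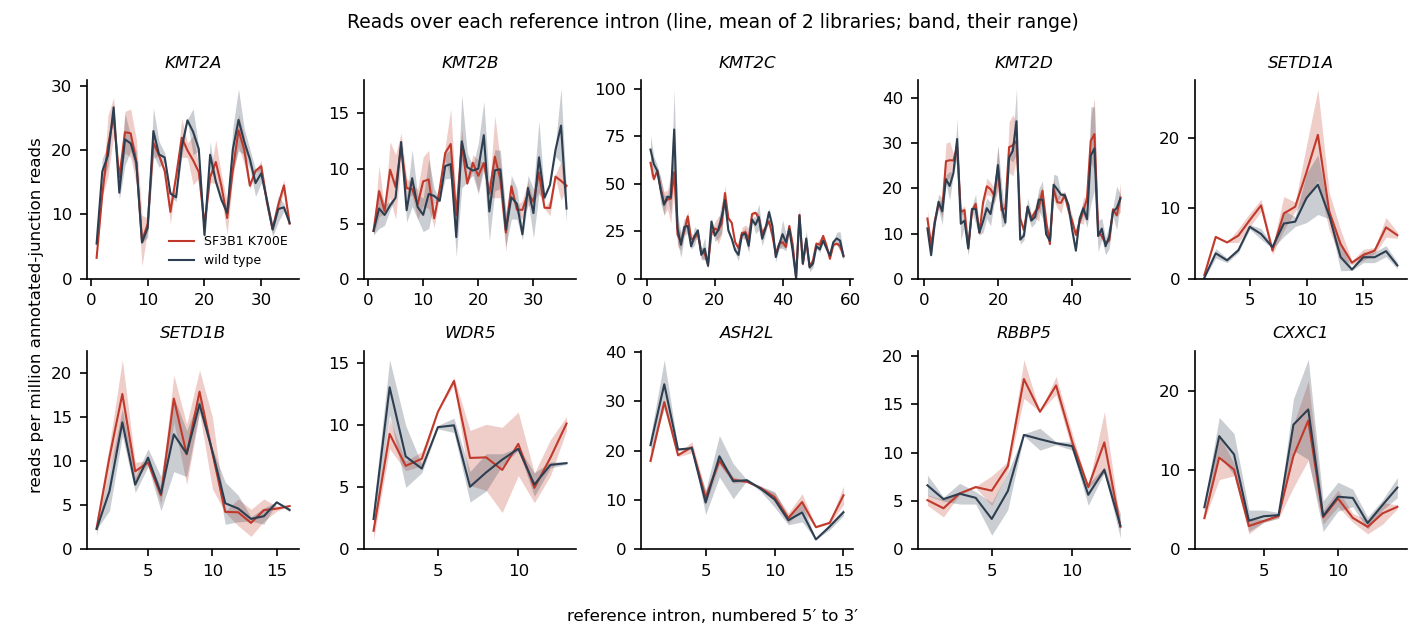
CPM, relative to all annotated-junction reads, over each reference intron, numbered from the 5′ end, in one panel per gene. Lines are the mean of the 2 libraries of a genotype (SF3B1 K700E red, wild type dark) and bands their range. KMT2C falls from its first introns, 1034 reads in all over the first, to 193 reads in its last intron, and its intron 44 holds 7 reads.

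In KMT2C the reads fell along the gene, with 1034 reads in all over the first intron of 76950 nt and 193 over the last. The first intron of KMT2A, 31830 nt long, held 68 reads and its last 139. To set the gene ends against each other, reads per annotated intron in the 3′ outer part of the gene were divided by those in the 5′ outer part, the gene being split by position into 3 parts of equal length. ASH2L had log2 ratios of -0.83 and -0.94 in SF3B1 K700E and -1.52 and -1.42 in wild type (mean -0.88 ± 0.08 against -1.47 ± 0.07, SD, n = 2 each), so both mutant libraries were higher towards the 3′ end by more than the spread of replicates. RBBP5 had 0.66 and 0.78 in SF3B1 K700E and 0.25 and -0.01 in wild type, again higher in both mutant libraries. KMT2A was higher too, at 3.01 and 2.97 against 2.90 and 1.94, where wild-type replicate 2 made most of the difference. Few reads lay in the 5′ part of these 2 genes. KMT2A had 29 and 36 there in SF3B1 K700E against 26 and 52 in wild type, and RBBP5 49 and 40 against 37 and 46. Their ratios therefore carry wide counting error.

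KMT2B went the other way, with 0.20 and -0.0035 in SF3B1 K700E and 0.40 and 0.33 in wild type. The other 6 genes overlapped, KMT2C among them at -0.92 and -1.27 in SF3B1 K700E against -1.51 and -1.12 in wild type. The counts of 3 genes above and 1 below compare with 17.8% above and 14.5% below of 6195 genes of at least 20 kb, a class that holds the members except CXXC1. The median over those genes was -0.08 ± 0.13 in SF3B1 K700E and -0.10 ± 0.03 in wild type (SD, n = 2 each, exact 2-sided permutation p 1, smallest possible 0.333). Single members were not tested for this ratio, since with 2 libraries against 2 no such test could fall below 0.333.

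**Figure D3:**
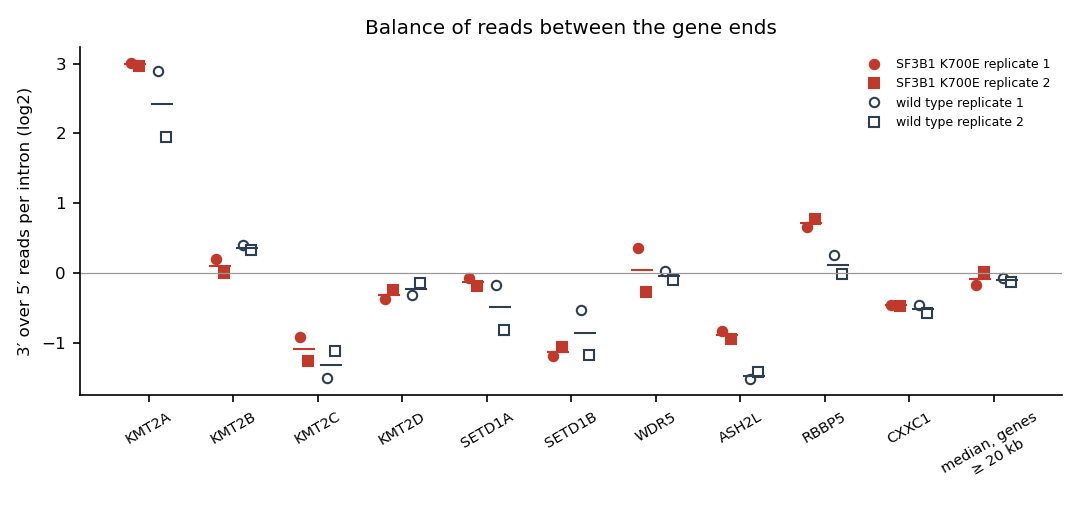
Log2 ratio of reads per annotated intron in the 3′ outer part over the 5′ outer part of each gene, by library, and the median over genes of at least 20 kb, with SF3B1 K700E in filled red left of wild type in open dark symbols and bars at the means. ASH2L, RBBP5 and KMT2A lie higher in both SF3B1 K700E libraries, KMT2A by little over wild-type replicate 1. KMT2B lies lower, and the median of all genes does not separate the genotypes.

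Upstream acceptors of the kind known for SF3B1 K700E had few reads in the 10 genes. A site was counted when it was unannotated and lay 10 to 30 nt upstream of the most used, annotated acceptor of its donor. Unannotated means, here and below, absent from the annotation that the authors used at mapping. The 10 genes held 12 such sites in ASH2L, KMT2A, KMT2C, KMT2D, SETD1A and SETD1B, none of which had more than 3 reads. Most such sites were as little read elsewhere: in all other genes 19.7% of 3621 sites had more than 3 reads and 5.88% had at least 10, and the median was 1 read in both sets. The sites of the 10 genes summed to 7 and 7 reads in SF3B1 K700E and 4 and 3 reads in wild type. As a rate this was 4.28 and 3.35 reads per 10000 junction reads in SF3B1 K700E (95% Wilson intervals 2.07 to 8.83 and 1.62 to 6.92), and 2.97 and 2.14 in wild type (1.15 to 7.63 and 0.73 to 6.30), and these overlapping intervals do not separate the genotypes.

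In all other genes the rate was 11.6 and 9.68 per 10000 in SF3B1 K700E, against 3.79 and 4.18 in wild type. Both mutant libraries were above both wild-type libraries there, as they also were in the 10 genes. In all other genes, the 213 sites with at least 10 reads held 41.4% of the reads at such sites. The remaining sites alone gave 6.72 and 5.47 per 10000 in SF3B1 K700E against 2.43 and 2.67 in wild type. The intervals of the 10 genes enclose these rates in each of the 4 libraries. For the full rate, the upper limits of the 10 genes in SF3B1 K700E, 8.83 and 6.92, lay under the lower limits of the other genes, 11.3 and 9.41. The intervals hold counting error alone, without the spread between genes, and reads had no molecular identifiers, and with 2 libraries against 2 the smallest exact permutation p is 0.333, which both sets of genes gave. The most used of the 12 sites were 3 reads in KMT2D, 19 nt upstream of an acceptor with 259 reads (chr12:49046810-49047964), all in SF3B1 K700E replicate 1, and 3 reads each at 2 KMT2D sites and 1 ASH2L site, all 3 of which had reads in both genotypes.

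**Figure D4:**
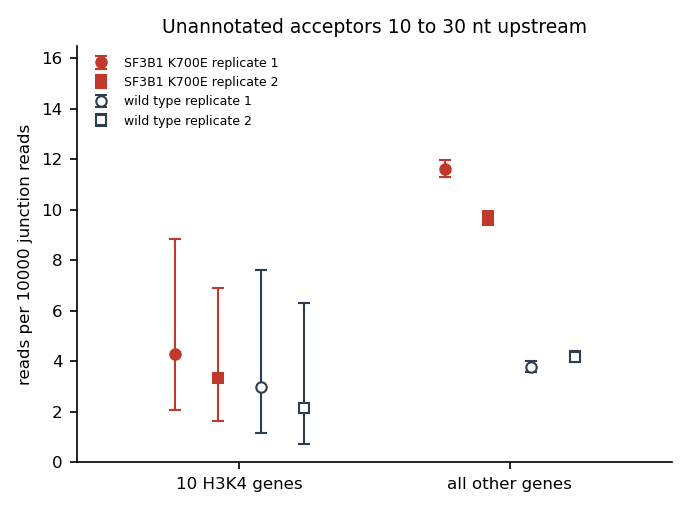
Reads at unannotated acceptors 10 to 30 nt upstream of the main acceptor, per 10000 junction reads, in the 10 H3K4 genes and in all other genes, with 95% Wilson intervals. Filled red symbols are SF3B1 K700E libraries and open dark symbols wild-type libraries. The 10 genes stay between 2.14 and 4.28 in all 4 libraries, while the other genes reach 11.6 and 9.68 in SF3B1 K700E.

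No junction of the 10 genes passed a test of splice-site choice. Acceptor choice compares junctions that share a donor, donor choice those that share an acceptor, and intron use sets each junction against the rest of its gene, all with edgeR's diffSpliceDGE on junctions of at least 10 reads and adjusted over all genes. Acceptor choice was tested for 58 junctions of 8 members and called 0, as against 0.137% of 23366 junctions of all genes. Donor choice called 0 of 53, against 0.0087% of 22976, and intron use 0 of 313, against 0.0393% of 127069. At an unadjusted p of 0.05, 1 of the 58 member junctions passed in acceptor choice, where 3.17% of all junctions did, 0 of 53 in donor choice, beside 2.18%, and 3 of 313 in intron use, beside 1.99%. Counting only junctions that were not the most used one at their shared site, 3 of 30 in acceptor choice had a higher share in both SF3B1 K700E libraries and 3 a lower one, beside 23.4% and 14.5% over all genes. In donor choice 2 of 27 such junctions were higher and 2 lower, beside 21.1% and 15.8% over all genes.

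Junctions outside the reference transcript, called alternative from here on, held a small part of the reads, although a few took a large share at their own splice site. The 10 genes had 355 alternative junctions, of which 49 had at least 10 reads, 22 of them annotated at mapping and 27 not. The outer donor of KMT2D exon 21, with 223 reads, is among the 27, although GENCODE release 29 holds it. Its reads, 44 and 88 in SF3B1 K700E against 61 and 30 in wild type, are part of the unannotated share given next. SETD1A and SETD1B had none of the 49 and KMT2C had 18. The unannotated share of reads was 2.37% and 2.7% in SF3B1 K700E against 2.28% and 1.95% in wild type over the 10 genes (2.54 ± 0.24% against 2.12 ± 0.24%, SD, n = 2 each), and 3.37% and 3.07% against 2.88% and 2.90% over all other genes. Both differences had an exact permutation p of 0.333, the smallest possible. RBBP5 had the highest share of the 10, 6.90% and 7.59% in SF3B1 K700E against 6.35% and 7.93% in wild type, and CXXC1 the lowest, 0.97% and 0.34% against 0.42% and 0.61%, and both overlapped between genotypes. In 2 of the 10 genes both mutant libraries were above both wild-type libraries, and in 0 below them, as in 24.7% and 9.99% of 10032 genes with unannotated reads. The 2 were KMT2A, at 1.78% and 1.54% in SF3B1 K700E against 0.92% and 1.27% in wild type, and KMT2C, at 2.10% and 2.37% against 1.89% and 1.75%.

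Exon skipping made up 11 of the 49 junctions, in KMT2A, KMT2B, KMT2C and ASH2L. The skipping reads summed to 83 and 91 in SF3B1 K700E and 37 and 58 in wild type, which is 49.5 and 42.4 per 10000 reads of the 10 genes against 26.8 and 40.7. Both mutant libraries were higher, one of them by little. Raw reads were higher in SF3B1 K700E for 10 of the 11 junctions, with ASH2L exon 2 the exception, and for 8 of the 11 once scaled to the reads of the 10 genes, which were more numerous in SF3B1 K700E. Skips in all other genes were not counted. The skipped stretches were 67 to 347 nt long, and 6 of the 11 were a multiple of 3.

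Among the skips, that of KMT2C exon 15 (chr7:152235934-152247901) had the smallest p. It had 10 and 12 reads in SF3B1 K700E and 3 and 3 in wild type, which is 8.55% and 10.2% of the reads into the acceptor of exon 16, against 3.37% and 3.23% (9.36 ± 1.15% against 3.30 ± 0.10%, SD, n = 2 each). The share was higher in both mutant libraries, at a log2 change of 1.46 that did not pass (donor choice, edgeR p 0.051, adjusted p 1.00). This junction is annotated and also had 43 multiply mapped reads, more than its 28 unique ones. KMT2C has near-identical copies elsewhere in the genome, so this count is uncertain. The skip of KMT2B exon 6 (chr19:35722719-35723446) is unannotated and had 2 and 11 reads in SF3B1 K700E against 0 and 3 in wild type, or 3.57% and 16.9% against 0% and 6.52% of the reads into exon 7, the 0 of 43 reads in wild-type replicate 1 allowing a share of up to 6.98%. The genotypes overlapped, and its log2 change of 1.57 did not pass (edgeR p 0.140, adjusted p 1.00). Skipping of KMT2A exon 8, chosen after its values were seen as an exon in the region of the gene where leukemia breakpoints cluster, had 9 and 6 reads in SF3B1 K700E and 0 and 8 in wild type. The 3 exons are shown because their lengths differ in what a skip does to the reading frame, 120 nt being a multiple of 3 and 280 and 74 nt not. The sequences are exonic, from the GENCODE release 29 transcripts on GRCh38, read in the sense of the gene.
KMT2C exon 15, skipped (chr7:152238707-152238826, minus strand): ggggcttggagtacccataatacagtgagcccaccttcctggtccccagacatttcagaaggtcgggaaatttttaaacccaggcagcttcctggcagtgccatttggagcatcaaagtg
KMT2B exon 6, skipped (chr19:35722995-35723274, plus strand): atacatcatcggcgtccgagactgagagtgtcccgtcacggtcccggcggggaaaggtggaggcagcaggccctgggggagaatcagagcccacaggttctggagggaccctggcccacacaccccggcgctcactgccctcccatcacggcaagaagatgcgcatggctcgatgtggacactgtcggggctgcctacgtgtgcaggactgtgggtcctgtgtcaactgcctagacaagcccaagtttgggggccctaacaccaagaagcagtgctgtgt
KMT2A exon 8, skipped (chr11:118482422-118482495, plus strand): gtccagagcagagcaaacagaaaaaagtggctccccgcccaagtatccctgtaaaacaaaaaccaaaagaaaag

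Outside the skips, the KMT2C junction with the smallest p ran from exon 6 to an unannotated acceptor inside intron 6 (chr7:152286377-152309965). It had 2 and 1 reads in SF3B1 K700E against 3 and 8 in wild type, 1.04% and 0.53% against 1.97% and 5.06% of the reads from that donor. Both mutant libraries were lower, at a log2 change of -2.05 (acceptor choice, edgeR p 0.042, adjusted p 1.00), on 14 reads in all. In SETD1A the last intron, chosen after its value was seen and 77 nt long (chr16:30983773-30983849), had 27 and 29 reads in SF3B1 K700E against 8 and 5 in wild type. This was 5.84% and 3.78% of the gene's reads against 2.17% and 1.76%, higher in both mutant libraries, and the log2 change of 1.2 relative to the rest of the gene did not pass (intron use, edgeR p 0.038, adjusted p 1.00). In CXXC1 an annotated acceptor inside intron 1 (chr18:50287509-50287586) had 0 and 3 reads in SF3B1 K700E against 8 and 5 in wild type. Its share of the donor was 0% and 13.6% against 33.3% and 19.2%, where 0 of 17 reads in SF3B1 K700E replicate 1 allows up to 17.6%, lower in both mutant libraries, with a log2 change of -1.67 (acceptor choice, edgeR p 0.092, adjusted p 1.00). An annotated donor further along the same intron (chr18:50286859-50287422), chosen after its values were seen, did not share this direction. It had 0 and 9 reads in SF3B1 K700E against 5 and 3 in wild type. These were 0% and 32.1% of the reads into exon 2 against 23.8% and 12.5%, which overlapped, at a log2 change of 0.14.

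Further junctions of ASH2L, KMT2D, RBBP5 and CXXC1 did not pass either. A donor upstream of the reference first exon of ASH2L (chr8:38105739-38106377), annotated, gave 35 and 53 reads in SF3B1 K700E against 32 and 23 in wild type. Its share of the reads into exon 2 was 31.5% and 37.9% against 29.1% and 25.3%, higher in both mutant libraries at a log2 change of 0.35 (edgeR adjusted p 1.00). The skip of ASH2L exon 14 had 11 and 5 reads in SF3B1 K700E and 1 and 4 in wild type. KMT2D used an acceptor inside intron 34 with 1 and 7 reads in SF3B1 K700E and 0 and 2 in wild type. A donor inside RBBP5 exon 13 had 9 and 9 reads against 5 and 2, and CXXC1 used a donor 12 nt into intron 8 with 4 and 3 reads against 3 and 4. Apart from the ASH2L donor, the genotypes overlapped at each of these in the share of reads at the splice site, though not always in raw reads. The RBBP5 donor took 45.0% and 47.4% in SF3B1 K700E against 55.6% and 13.3% in wild type. The skip of ASH2L exon 14 took 32.4% and 16.1% of the reads into exon 15 against 5.26% and 22.2%.

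**Figure D5:**
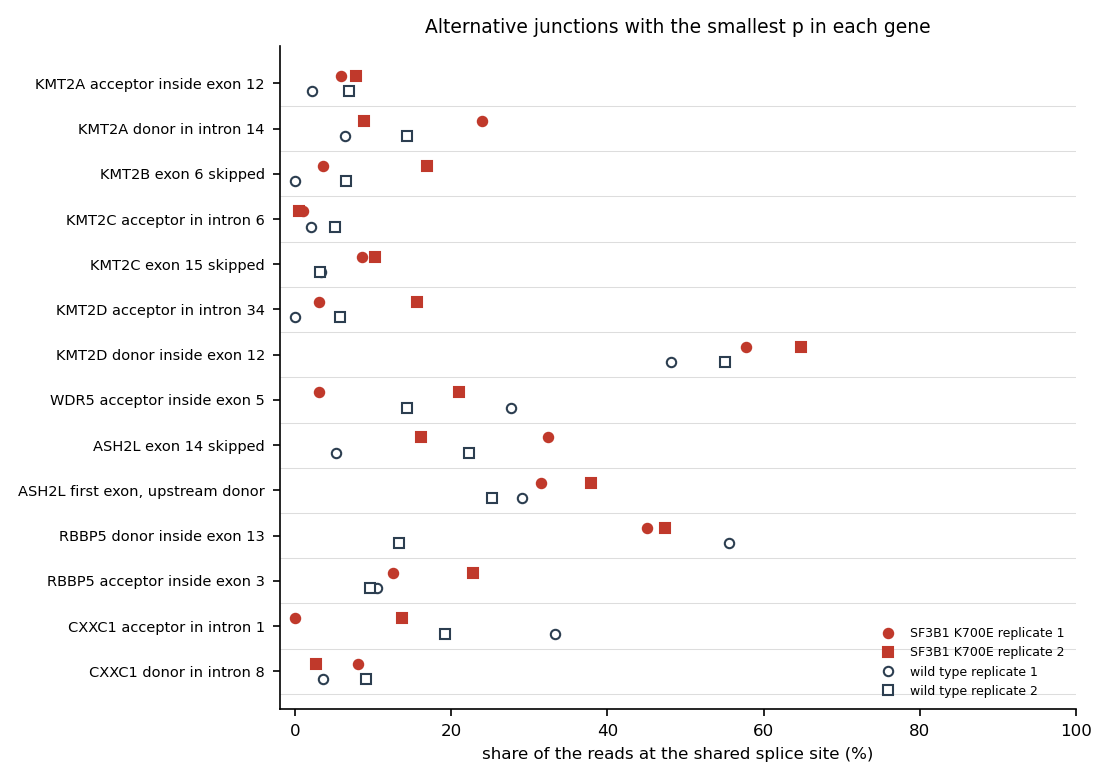
Share of the reads at the shared splice site that each alternative junction took, in percent, for the junctions with the smallest p of each gene that had one, and for KMT2D the inner donor of exon 12. In each row the SF3B1 K700E libraries (filled red) are drawn above the wild-type libraries (open dark), circles for replicate 1 and squares for replicate 2. For the skip of KMT2C exon 15 the mutant libraries lie at 8.55% and 10.2% and the wild-type libraries at 3.37% and 3.23%.

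Several exons of the methyltransferase genes carried 2 splice sites a few bases apart, and both sites were in use in both genotypes. The sites in KMT2C and in KMT2D exon 21 were chosen after their values were seen. At KMT2D exon 12 an unannotated donor 3 nt inside the exon had 30 and 79 reads in SF3B1 K700E and 26 and 22 in wild type. It took 57.7% and 64.8% of the reads into exon 13 in SF3B1 K700E and 48.1% and 55.0% in wild type, so it was used more often than the annotated donor over the 4 libraries. The share was higher in both mutant libraries, at a log2 change of 0.29 (donor choice, edgeR p 0.506, adjusted p 1.00). At KMT2D exon 21 a donor 9 nt further out took 44.4% and 48.4% of the reads into exon 22 in SF3B1 K700E and 45.9% and 40.5% in wild type, on 44 and 88 reads against 61 and 30.

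KMT2A exon 14 has a donor 9 nt further out as well, with 11 and 6 reads in SF3B1 K700E and 3 and 8 in wild type, or 23.9% and 8.82% against 6.38% and 14.3% of the reads into exon 15. An unannotated acceptor 3 nt inside KMT2A exon 12 had 6 and 8 reads against 2 and 5, or 5.88% and 7.77% against 2.15% and 6.85%. In KMT2C an outer acceptor 3 nt before exon 3 took 9.66% and 11.7% in SF3B1 K700E and 8.45% and 9.20% in wild type, higher in both mutant libraries at a log2 change of 0.28 (acceptor choice, edgeR p 0.534, adjusted p 1.00). An unannotated acceptor 3 nt inside KMT2C exon 24 had 5 and 13 reads in SF3B1 K700E and 4 and 11 in wild type, or 2.91% and 4.96% against 2.68% and 7.24%, which overlapped. An inner donor 12 nt before the end of KMT2C exon 54 took 27.3% and 28.2% against 19.6% and 33.9%, which overlapped. All of these pairs, each at most 12 nt apart, differ by a multiple of 3 nt. The sequences are shown for the bases, in capitals, that one site of each pair keeps and the other leaves out. These bases begin with GT in the 4 donor pairs and are CAG in 2 of the acceptor pairs and AAG in the other. The GT or AG is that of the inner splice site. Only junctions with a canonical or minor-class motif were used, so its presence mostly follows from that choice.
KMT2D exon 12, last 30 nt, capitals left out by the inner donor (chr12:49049105-49049134, minus strand): tcaactgcttcttccattgagactctgGTA
KMT2D exon 21, end with the 9 nt added by the outer donor in capitals (chr12:49044191-49044220, minus strand): gggatgggcagcccgacgaggGTGAGACGG
KMT2A exon 14, end with the 9 nt added by the outer donor in capitals (chr11:118491289-118491318, plus strand): ccaaatgtgagaatctttcagGTACAGAAG
KMT2A exon 12, first 30 nt, capitals left out by the inner acceptor (chr11:118489792-118489821, plus strand): CAGctgctggagtgtaataagtgccgaaac
KMT2C exon 3, start with the 3 nt added by the outer acceptor in capitals (chr7:152330713-152330742, minus strand): CAGaaatcaaagaacaatctgcagaagagg
KMT2C exon 24, first 30 nt, capitals left out by the inner acceptor (chr7:152207399-152207428, minus strand): AAGgagaacttatggattgtgatggaaaat
KMT2C exon 54, last 30 nt, capitals left out by the inner donor (chr7:152145153-152145182, minus strand): gagtgcccatgtcaagagGTTTGTGTTAAG

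KMT2C also carried an exon that its reference transcript lacks, noticed in the values of intron 44. Reference intron 44 held only 3 and 2 reads in SF3B1 K700E and 1 and 1 in wild type, and an exon of 165 nt within it (chr7:152157761-152157925), which is annotated in another KMT2C transcript and is a multiple of 3 long, was joined in its place in most reads. The donor of exon 44 joined 3 acceptors of this exon. The outer, annotated one had 22 and 20 reads in SF3B1 K700E against 15 and 21 in wild type, or 51.2% and 41.7% against 53.6% and 56.8%, lower in both mutant libraries at a log2 change of -0.25 (acceptor choice, edgeR p 0.596, adjusted p 1.00). Unannotated acceptors 3 nt and 71 nt further in had 20.9% and 27.1% against 14.3% and 21.6%, and 27.9% and 31.2% against 32.1% and 21.6%, and both overlapped between genotypes. The exon is printed with the AG before each inner acceptor in capitals.
KMT2C extra exon (chr7:152157761-152157925, minus strand): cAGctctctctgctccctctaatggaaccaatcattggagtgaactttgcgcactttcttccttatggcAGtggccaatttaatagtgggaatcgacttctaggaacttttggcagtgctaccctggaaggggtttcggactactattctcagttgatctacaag

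In the core subunits the unannotated acceptors lay deeper inside exons. RBBP5 had acceptors 56 nt into exon 3, 56 nt into exon 5 and 59 nt into exon 12, and WDR5 had one 55 nt into exon 5. ASH2L had an acceptor 89 nt into exon 10, with 3 and 5 reads in SF3B1 K700E and 4 and 1 in wild type. Its share was 5.66% and 7.25% against 9.09% and 2.17%, which overlapped. The RBBP5 exon 5 site had 17 and 12 reads in SF3B1 K700E and 4 and 16 in wild type, 39.5% and 26.7% against 20.0% and 43.2% of the reads from exon 4. The exon 12 site had 9 and 14 reads against 9 and 4, or 25.7% and 29.8% against 28.1% and 20.0%. The exon 3 site had 3 and 5 reads against 2 and 2, or 12.5% and 22.7% against 10.5% and 9.52%, higher in both mutant libraries at a log2 change of 0.76 (acceptor choice, edgeR p 0.460, adjusted p 1.00), and its longest overhang was 26 nt. In WDR5 the site had 1 and 9 reads in SF3B1 K700E and 8 and 4 in wild type, or 3.03% and 20.9% against 27.6% and 14.3%. Over the 4 sites of RBBP5 and WDR5 and the 4 libraries the share ran from 3.03% to 43.2%, and apart from the site in RBBP5 exon 3 the genotypes overlapped. Each of these RBBP5 and WDR5 exons is shown from its first base to 20 nt past the acceptor, with the AG that ends the skipped stretch in capitals.
RBBP5 exon 3 (chr1:205114886-205114961, minus strand): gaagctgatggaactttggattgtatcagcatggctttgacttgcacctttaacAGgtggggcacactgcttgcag
RBBP5 exon 5 (chr1:205103944-205104019, minus strand): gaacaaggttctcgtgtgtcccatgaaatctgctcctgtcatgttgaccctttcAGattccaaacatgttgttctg
RBBP5 exon 12 (chr1:205096833-205096911, minus strand): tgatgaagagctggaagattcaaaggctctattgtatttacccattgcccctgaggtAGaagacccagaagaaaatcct
WDR5 exon 5 (chr9:134141949-134142023, plus strand): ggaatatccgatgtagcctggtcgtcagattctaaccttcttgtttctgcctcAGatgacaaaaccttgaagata

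KMT2C was the member whose count depended most on unique mapping. Multiply mapped reads made up 7.36% of its annotated-junction reads, against at most 0.63% in the others. They sat in a few introns, with 629 multiply mapped beside 669 unique reads in intron 7, 434 beside 1051 in intron 8 and 118 beside 114 in intron 18. KMT2A shares 5 introns with another annotated gene, ENSG00000285827.1, and the 1581 reads over them were left out of its total. KMT2D had a further annotated junction outside its reference transcript (chr12:49055362-49059612), at the 5′ end of the gene, with 72 and 108 reads in SF3B1 K700E and 72 and 44 in wild type.

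Other genes of the H3K4 pathway did not pass the test of gene totals either. Of the accessory subunits 12 of 13 were measured and 0 passed. HCFC1, which joins the SETD1 and KMT2A complexes, had 207 and 234 CPM in SF3B1 K700E and 160 and 158 CPM in wild type, higher in both mutant libraries (log2 change 0.47, edgeR adjusted p 0.512). PSIP1, which tethers KMT2A to chromatin, had 114 and 125 CPM against 148 and 169 CPM, lower in both (log2 change -0.41, edgeR adjusted p 0.630). TASP1, the protease that cleaves KMT2A, and PAXIP1, a subunit of the KMT2C and KMT2D complexes, had log2 changes of -0.31 and 0.26. All 5 listed H3K4 demethylase genes were measured and 0 passed, the 4 with the smallest p being KDM1B at -0.27, KDM1A at 0.12, KDM5C at 0.11 and KDM5B at 0.07 on the log2 scale.

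Of 7 other methyltransferase genes 6 were measured and 0 passed. SETD7, an H3K4 monomethyltransferase, had 16.4 and 8.94 CPM in SF3B1 K700E against 27.8 and 22.5 CPM in wild type, lower in both mutant libraries at a log2 change of -1.0 (edgeR p 0.021, adjusted p 0.335). Without SF3B1 K700E replicate 1 its log2 change was -1.48 (edgeR adjusted p 0.032), a value that rests on replicate 2 alone, the lowest library, with the spread taken from the 2 wild-type libraries and assumed alike in SF3B1 K700E. Under the other alternatives its adjusted p was 0.133 to 0.691. PRDM9, KMT2E and ASH1L had log2 changes of -0.80, -0.36 and 0.08. Of 14 genes for proteins that bind methylated H3K4, 12 were measured and 0 passed, and the 4 with the smallest p, ING3, PHF13, SGF29 and PHF2, had log2 changes of 0.50, 0.66, 0.32 and 0.20. The median log2 change was 0.07 for accessory subunits, 0.07 for demethylases, -0.21 for the other methyltransferases and 0.05 for the readers.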

How the data were processed

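RNA bound to chromatin was measured in 4 K562 libraries. Per the file headers of the deposited run logs, the authors mapped the reads once with STAR 2.7.10a, against GRCh38.p12 and with GENCODE release 27 junctions (353424) in the index and 1887 of release 22 added. The deposited values are raw counts of uniquely and of multiply mapped reads at each splice junction. Unspliced RNA was not analysed here.

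Unique reads over junctions with a canonical or minor-class motif were used, and junctions were assigned to genes with GENCODE release 29, in which 99.7% of the annotated ones were found. Gene totals were scaled by TMM, filtered with filterByExpr and tested with the quasi-likelihood test in edgeR 4.0.16 (R 4.3.3), genotype being its single factor. Junction choice was tested with diffSpliceDGE on junctions of at least 10 reads over the 4 libraries. P-values were adjusted by Benjamini-Hochberg over all features. The edgeR tests were tried on simulated counts, in which the changed junctions held more reads than most alternative junctions of these genes. Their power at such low counts was not tested. Alternatives were limma 3.58.1, DESeq2 1.42.0, other filters, all mapped reads, left-out libraries and a replicate block. Depth was 3582592 to 5322414 reads per library. The 2 libraries of a genotype differed by more than counting noise.

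All 10 genes are named, and per gene the 2 tested alternative junctions with the smallest p. Of other genes the 4 with the smallest p per list are named. Exceptions are stated. The members and lists were chosen with earlier results of these data known. Markers of erythroid, megakaryocyte, myeloid, lymphoid and epithelial cells were listed, of which 11 of 15, 1 of 6, 3 of 8, 1 of 6 and 4 of 10 were measured, with 0 passing.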

Additional observations from a re-analysis of the deposited data

How the results depend on the processing

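No member passed in gene totals, acceptor choice, donor choice or intron use under any alternative that was run. Among the other H3K4 genes, 1 passed without SF3B1 K700E replicate 1, SETD7, where that genotype was a lone library assumed to vary like wild type. For counts over all genes, DESeq2 called 63 genes higher and 154 lower, against 36 and 65 with edgeR. With a replicate block the calls were 19 higher and 0 lower in acceptor choice (31 and 1 without it), 0 and 0 in donor choice (1 and 1), 17 and 0 in intron use (47 and 3) and 51 and 85 in gene totals (36 and 65). The numbers were not taken as pairs, since replicate differences of the genotypes correlated at -0.23, and a crossed pairing, added after the data were seen, gave 134 genes higher and 326 lower. A junction minimum of 20 or of 5 reads gave 2 lower acceptors. Voom called 9 acceptors higher and 6 lower, and 5 introns higher. With multiply mapped reads donor choice called 0 and 0, and intron use 6 lower. The members' difference in unannotated share was 0.16 percentage points on junctions of at least 10 reads only, against 0.42.

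Leaving out each library in turn, gene totals called 0 to 98 higher and 0 to 227 lower, acceptor choice 5 to 11 and 0 to 1, donor choice 0 and 0, intron use 9 to 13 and 0 to 2, and other H3K4 genes 0 to 1. The 0 and 0 in gene totals came without SF3B1 K700E replicate 2. The difference in unannotated share was 0.25 to 0.59 points, that in upstream acceptors 0.80 to 1.72 per 10000 reads and that in the median 5′ to 3′ balance -0.07 to 0.11. Log2 changes of gene totals took both signs in KMT2B (-0.16 to 0.24), KMT2C (-0.18 to 0.19), KMT2D (-0.032 to 0.21), SETD1B (-0.17 to 0.38), WDR5 (-0.085 to 0.26), ASH2L (-0.0081 to 0.061), CXXC1 (-0.64 to 0.022), KDM5B (-0.13 to 0.26) and KDM5C (-0.20 to 0.38). So did those of the acceptor in KMT2A exon 12 (-0.015 to 1.61) and KMT2D intron 34 (-0.10 to 4.72), and of the donors of KMT2A exon 14 (-0.26 to 1.23), RBBP5 exon 13 (-0.27 to 1.74) and CXXC1 intron 8 (-1.01 to 0.57). SETD1A stayed between 0.24 and 0.70, RBBP5 between 0.19 and 0.47 and the skip of KMT2C exon 15 between 1.34 and 1.59. The cause was not tested.

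At 10 reads over 4 libraries, single alternative junctions of these genes carry wide counting error.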

Other observations

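In WDR5, 1 junction without a canonical motif had 0 and 0 reads in SF3B1 K700E and 3 and 3 reads in wild type. It was the only such junction in the 10 genes and entered no test.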
